A study of Homo sapiens with 40 samples.

Results

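Heregulin (HRG, neuregulin 1) is the ligand of the receptors HER3 and HER4, and the results here describe what 24 h of HRG did to the RNA of BT474, a HER2-amplified luminal breast cancer cell line. All genes were compared between the 2 BT474 libraries labelled HRG at 24 h and the 2 labelled vehicle at 24 h, which are 4 of the 40 libraries of the series. Of the 44584 gene names in the count table, 25146 passed the filter on low counts and were tested. The cells had been kept for 14 to 16 h in medium with 0.1% serum, and then received 10 ng/mL HRG or water as vehicle in fresh starvation medium, so that the vehicle cells were starved for the whole 24 h as well. Further groups were compared only to place these values: HRG and vehicle at 12 h in BT474, and 50 ng/mL EGF at 24 h in BT474. HRG and vehicle at 24 h in BT474R were compared for the same purpose. BT474R is 1 line, a derivative of BT474 that was made resistant to trastuzumab (an antibody against HER2). BT474 libraries from the start of treatment and from HRG and vehicle at 1 h are shown in figures. All BT474 libraries, including those with EGF at 1 h and 12 h, entered the fit behind the BT474 comparisons. Each group has 2 libraries (n = 2), which are known by replicate number only. The p-values rest on the spread between libraries of the same group, pooled over all groups of a fit, and this spread may be technical.

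HRG binding to HER3 pairs this receptor, which has little kinase activity of its own, with HER2, and the pair signals strongly through PI3K and AKT as well as through RAS, MEK and ERK. ERK signalling induces transcription factors of the ETS, EGR and FOS families and, with a delay, its own inhibitors, the DUSP phosphatases and the Sprouty proteins, while AKT keeps FOXO transcription factors out of the nucleus. In HER2-amplified luminal cells these pathways are known to raise growth, glycolysis and lipid synthesis and to act against estrogen receptor signalling.

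The 4 libraries held between 19941960 and 29098915 counts, and their 50 most counted genes took between 13.8% and 14.3% of them. Values below are CPM, which are counts scaled to a common library size, after TMM scaling, whose factors lay between 0.993 and 1.036 in these libraries. A gene with 3 counts or fewer in both libraries of a group is called at the floor, which is 0.132 CPM with vehicle and 0.114 CPM with HRG on average, and this covers counting error only. The 12 markers of HER2-positive luminal cells were all measured, and their summed level lay between 13361 and 14319 CPM in the 4 libraries. Of 16 markers of fibroblasts, endothelial cells and blood cells, 9 were tested, with a summed level between 103 and 125 CPM that came nearly all from COL1A1 and VWF, and COL1A2, DCN, PDGFRB and CD3E had 0 counts.

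After 24 h, HRG had changed many genes in both directions, most of them by small amounts. A total of 6062 genes were differentially expressed genes (DEGs), 24.1% of those tested, by the quasi-likelihood test of edgeR, at a Benjamini-Hochberg adjusted p below 0.05 taken over every gene tested. Of these, 3155 genes (12.5%) were higher with HRG and 2907 (11.6%) were lower. The absolute log2 fold change of the DEGs had a median of 0.35, and it was below 0.5 for 2362 of the genes that rose and 1744 of those that fell. Of the large changes, 317 genes rose and 465 fell by a log2 of 1 or more, and 95 rose and 123 fell by a log2 of 2 or more. The median log2 fold change of all genes tested was -0.02. In 6026 of the 6062 DEGs the 2 groups did not overlap, so groups apart do not set a named DEG apart from the others. Calls came mainly from genes with enough reads, with 37.5% of the genes with a mean of 1 CPM or more being DEGs and 4.07% of the rest.

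**Figure D1:**
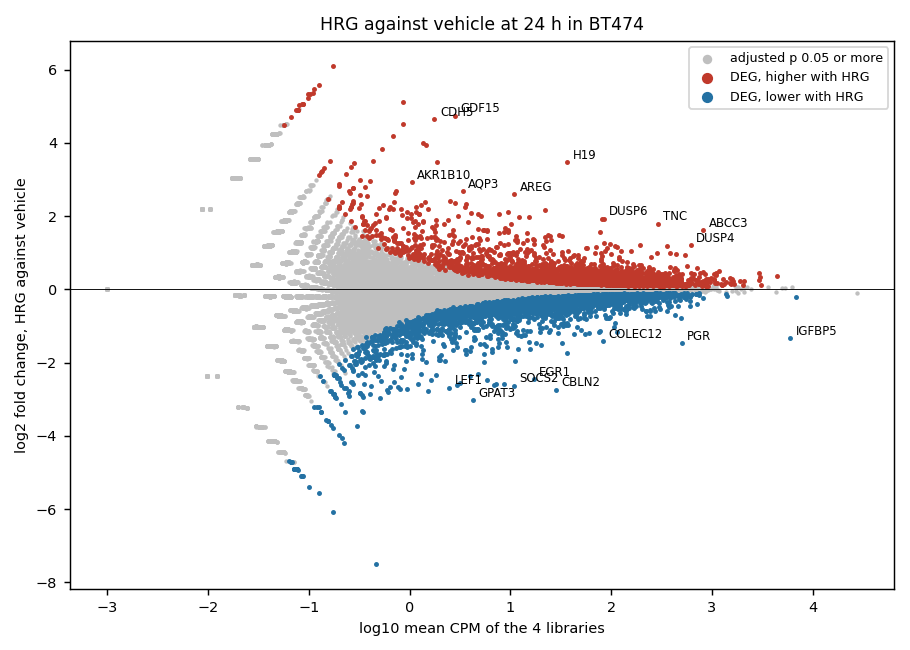
The log2 fold change of HRG against vehicle at 24 h (vertical axis) against the log10 of the mean CPM of the 4 libraries (horizontal axis, 0.001 CPM at the left end) for each gene tested. Red points are the 3155 DEGs that were higher with HRG, blue points the 2907 that were lower, grey points the other genes, and the named points are among the largest changes and the smallest p-values.

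The 12 largest rises among DEGs with a mean of 1 CPM or more had log2 fold changes between 2.26 and 4.74. Only DEGs whose groups did not overlap were eligible, and LOC names and names that repeat another with a number were left out. GDF15, a secreted stress cytokine of the TGF-beta family, had 0.244 and 0.158 CPM with vehicle and 4.88 and 6.0 CPM with HRG (log2 fold change 4.74, SE 0.31, adjusted p = 6.07e-15). H19, an imprinted long noncoding RNA, had 6.73 and 5.37 CPM with vehicle and 60.2 and 73.6 CPM with HRG (3.48, SE 0.19, adjusted p = 2.67e-17). AREG, which encodes the EGFR ligand amphiregulin, went from 3.51 and 2.73 CPM to 19.8 and 17.6 CPM (2.6, SE 0.13, adjusted p = 1.79e-18). For each of these genes the vehicle libraries differed from each other by far less than the change. The water and glycerol channel gene AQP3 had 0.829 and 0.948 CPM with vehicle and 5.02 and 6.71 CPM with HRG (2.69, SE 0.23, adjusted p = 5.49e-12). AKR1B10, an aldo-keto reductase gene, had 0.341 and 0.158 CPM with vehicle and 1.76 and 1.96 CPM with HRG (2.92, SE 0.37, adjusted p = 5.78e-08). The vehicle values of GDF15 and AKR1B10 were near the floor of 0.132 CPM, so the sizes of these rises rest on few vehicle counts. The other genes among these 12 were BPIFA2, RGS16, LIPG, SERPINA3, CA9 and S100A8, with log2 fold changes between 2.26 and 2.41, and CDH5. CDH5 encodes VE-cadherin, which is typical of endothelial cells, and had counts of 0 and 6 with vehicle and 89 and 90 with HRG (4.65, SE 0.42, adjusted p = 3.31e-11), a value that rests on the 6 counts of vehicle replicate 2 and becomes 9.35 without that library, where it depends on the prior count of the fit. Of the other endothelial markers, PECAM1, KDR and TEK had 6, 6 and 1 counts and VWF 1551 counts over the 4 libraries together.

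The 12 largest falls under the same conditions had log2 fold changes between -3.02 and -2.48. GPAT3, an acyltransferase of glycerolipid synthesis, had 8.14 and 7.07 CPM with vehicle and 1.00 and 0.834 CPM with HRG (-3.02, SE 0.19, adjusted p = 2.1e-15). CBLN2, which encodes a secreted synapse organiser, had 50.8 and 48.7 CPM with vehicle and 8.30 and 6.38 CPM with HRG (-2.74, SE 0.089, adjusted p = 3.97e-24). SOCS2, an inhibitor of cytokine and growth hormone receptors, fell from 18.0 and 19.1 CPM to 2.73 and 3.34 CPM (-2.63, SE 0.12, adjusted p = 3.51e-19). Both HRG libraries were below both vehicle libraries for each of them, which the choice of these genes required. LEF1, a DNA-binding partner of beta-catenin, had 4.44 and 4.15 CPM with vehicle and 0.415 and 0.959 CPM with HRG (-2.68, SE 0.25, adjusted p = 9.94e-11). ADCY2, an adenylyl cyclase, had 5.61 and 4.66 CPM with vehicle and 0.830 and 0.834 CPM with HRG (-2.61, SE 0.21, adjusted p = 1.71e-12). The remaining genes of the 12 largest falls were the phosphatase gene PTPRQ, the potassium channel gene KCNJ13, STXBP5L, the gel-forming mucin gene MUC19, the sodium channel gene SCN9A, the glutamate receptor gene GRIK2 and the transcription factor gene SOX6, with log2 fold changes between -2.78 and -2.48.

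**Figure D2:**
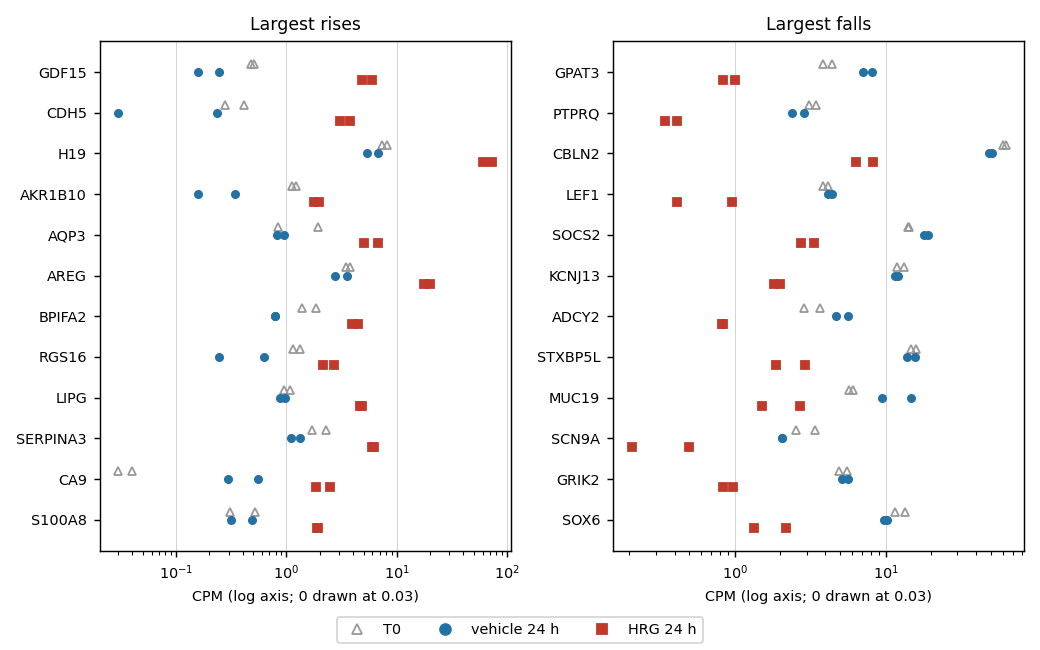
CPM (horizontal log axis) of the 12 genes with the largest rises (left) and the 12 with the largest falls (right) among DEGs with a mean of 1 CPM or more, with 1 point per library for the start of treatment (T0, grey triangles), vehicle at 24 h (blue circles) and HRG at 24 h (red squares). Only DEGs whose groups did not overlap were eligible, so in each row the 2 HRG libraries lie on one side of the 2 vehicle libraries. GDF15, for example, had 4.88 and 6.0 CPM with HRG against 0.244 and 0.158 CPM.

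The smallest p-values belonged to genes with many reads and tight replicates. TNC, which encodes the matrix glycoprotein tenascin-C, had 137 and 125 CPM with vehicle and 468 and 435 CPM with HRG (1.79, SE 0.049, adjusted p = 6.03e-26), and DUSP6, the phosphatase of ERK, had 33.4 and 36.3 CPM and 130.4 and 137 CPM (1.94, SE 0.057, adjusted p = 3.58e-25). ABCC3, a transporter of organic anions and drug conjugates, had 377 and 433 CPM with vehicle and 1168 and 1311 CPM with HRG (1.61, SE 0.048, adjusted p = 3.89e-25). ITGB6, an integrin subunit of epithelia, had 33.1 and 35.2 CPM with vehicle and 129.8 and 129.5 CPM with HRG (1.92, SE 0.065, adjusted p = 1.61e-23). In the other direction, IGFBP5, a secreted binding protein of insulin-like growth factors, had 9024 and 8203 CPM with vehicle and 3598 and 3239.7 CPM with HRG (-1.33, SE 0.042, adjusted p = 2.16e-24). COLEC12, a scavenger receptor gene, had 119 and 120.3 CPM with vehicle and 42.0 and 48.3 CPM with HRG (-1.41, SE 0.055, adjusted p = 9.99e-22). The replicates of these genes were close together. Groups that did not overlap were a condition of their choice.

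Of the 4 genes of the HER receptors, 3 were lower with HRG and 1 did not pass the test. ERBB2 (HER2) had 7099.6 and 7397 CPM with vehicle and 6161 and 6417 CPM with HRG (-0.20, SE 0.025, adjusted p = 3.23e-08). ERBB3, the HRG receptor HER3, had 261 and 278 CPM with vehicle and 217 and 230.1 CPM with HRG (-0.27, SE 0.038, adjusted p = 4.6e-07). ERBB4, the other HRG receptor, fell most, from 35.4 and 36.1 CPM to 19.7 and 16.6 CPM (-0.97, SE 0.077, adjusted p = 1.22e-12). EGFR did not pass the test, with 110.2 and 104 CPM with vehicle and 108 and 117 CPM with HRG (0.07, adjusted p = 0.5). Of the 10 ligand genes of this receptor family that were tested, 3 rose, 1 fell and 6 did not pass, with a median log2 fold change of 0.41, or 0.55 without 1 gene at the floor in both groups and with 1 gene at the floor in 1 group set to its bound, which is called the median at the bound below. Besides AREG, BTC (betacellulin) rose from 2.63 and 1.98 CPM to 4.60 and 4.38 CPM (0.98, SE 0.19, adjusted p = 0.000127), and EPGN (epigen) had counts of 2 and 1 with vehicle and 24 and 18 with HRG (adjusted p = 8.45e-06). NRG3, a ligand of HER4, fell from 4.83 and 3.67 CPM to 2.28 and 1.79 CPM (-1.03, SE 0.18, adjusted p = 2.14e-05). TGFA did not pass, with 8.05 and 9.68 CPM with vehicle and 10.4 and 10.9 CPM with HRG (0.26, adjusted p = 0.0789).

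Inhibitors that ERK signalling induces against itself were among the clearest rises. Gene lists are described here by their members that were tested. Over all genes tested, 12.5% were higher and 11.6% lower, and each count of calls in a list stands beside these shares. Of the genes with a mean of 1 CPM or more, 37.5% were DEGs in either direction. Of 12 genes of receptor feedback, 6 rose and 1 fell, with a median log2 fold change of 0.24. SPRY4, a Sprouty inhibitor of RAS activation, had 11.1 and 13.7 CPM with vehicle and 31.9 and 38.5 CPM with HRG (1.49, SE 0.093, adjusted p = 1.48e-15), and SPRY1, SPRED1 and SPRED2 rose by 0.84, 0.68 and 0.53 on the log2 scale. CBLB, a ubiquitin ligase for receptors, was the member that fell (-0.32, SE 0.077, adjusted p = 0.00128). Of 10 MAP kinase phosphatase genes, 4 rose and 1 fell, with a median of 0.20. DUSP4, a phosphatase of ERK in the nucleus, had 359 and 383 CPM with vehicle and 845 and 867 CPM with HRG (1.21, SE 0.038, adjusted p = 1.67e-24), and DUSP5 had 7.02 and 7.70 CPM and 12.4 and 13.5 CPM (0.81, SE 0.12, adjusted p = 2e-06). For DUSP4, DUSP5, DUSP6 and SPRY4, both HRG libraries were above both vehicle libraries.

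The transcription factor genes downstream of ERK split into a raised and a lowered set after 24 h. Of 20 such genes, 9 rose, 5 fell and 6 did not pass, with a median of 0.22. The ETS factor genes of the PEA3 group rose. ETV4 had 7.36 and 8.49 CPM with vehicle and 35.2 and 37.2 CPM with HRG (2.18, SE 0.086, adjusted p = 2.02e-21), ETV5 rose by 1.38 and ETV1 by 2.06 on the log2 scale. EGR3 rose from 0.341 and 0.435 CPM to 1.35 and 2.00 CPM (2.05, SE 0.39, adjusted p = 8.83e-05), and ATF3 from 1.27 and 1.03 CPM to 2.84 and 2.84 CPM (1.32, SE 0.24, adjusted p = 6.02e-05). EGR1, the best known immediate early gene of this group, was far below vehicle at this time, with 26.8 and 30.7 CPM with vehicle and 4.64 and 5.96 CPM with HRG (-2.46, SE 0.11, adjusted p = 3.43e-20). FOS had 3.22 and 3.04 CPM with vehicle and 0.90 and 1.33 CPM with HRG (-1.50, SE 0.22, adjusted p = 1.5e-06), FOSL2 had 182 and 163 CPM and 114 and 103 CPM (-0.66, SE 0.050, adjusted p = 2.46e-13), and JUNB fell by 0.28 on the log2 scale. MYC did not pass, with 39.5 and 37.4 CPM with vehicle and 38.2 and 38.1 CPM with HRG (-0.01, adjusted p = 0.946).

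Genes under FOXO control and of the insulin receptor pathway, which rise in starved cells, were more often lower with HRG. Of 18 genes, 10 fell and 2 rose, with a median log2 fold change of -0.21 (-0.24 to -0.10 with 1 library left out). SESN3, a sestrin that restrains mTORC1, had 10.1 and 11.3 CPM with vehicle and 5.12 and 4.79 CPM with HRG (-1.11, SE 0.11, adjusted p = 8.31e-10). PIK3IP1, an inhibitor of PI3K, had 22.0 and 23.7 CPM with vehicle and 15.4 and 17.2 CPM with HRG (-0.50, SE 0.083, adjusted p = 1.24e-05). FOXO3 fell by 0.31, FOXO4 by 0.54 and CCNG2, a cyclin of arrested cells, by 0.26 on the log2 scale. ERBB3 is also a member of this list. The receptor genes INSR and IGF1R did not pass, with log2 fold changes of 0.10 and -0.07 (adjusted p = 0.349 and 0.407).

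Steroid receptor genes were lower with HRG, and the luminal regulators beside them split. PGR, the progesterone receptor gene and a classical estrogen target, had 760.4 and 715 CPM with vehicle and 279.9 and 251 CPM with HRG (-1.47, SE 0.054, adjusted p = 1.36e-22). ESR1, the estrogen receptor alpha gene, had 123 and 124 CPM with vehicle and 77.2 and 68.2 CPM with HRG (-0.76, SE 0.051, adjusted p = 1.43e-14). For both of them the lower vehicle library was above the higher HRG library. GATA3 fell from 521 and 541 CPM to 316 and 334 CPM (-0.71, SE 0.037, adjusted p = 8.39e-18), FOXA1 by 0.25 and TFAP2C by 0.27 on the log2 scale. In all, 6 of 16 genes of this list fell and 5 rose, with a median of 0.04 (0.01 to 0.07 with 1 library left out), and the rises were small: ZNF703 (0.45), XBP1 (0.29), ELF3 (0.21), TFAP2A (0.14) and KLF5 (0.20). Without vehicle replicate 1, 3 of these 5 rises are called, KLF5 (adjusted p = 0.167) and TFAP2A (0.285) being lost, and KLF5 is also lost without HRG replicate 1 (0.196) and TFAP2A without HRG replicate 2 (0.443).

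Genes known as estrogen targets did not move as one. Of 20, 9 rose and 7 fell, with a median log2 fold change of 0.14. PGR, the chemokine gene CXCL12 (12.6 and 12.4 CPM with vehicle and 5.47 and 5.25 CPM with HRG, -1.21, SE 0.12, adjusted p = 3e-10), GREB1 (-0.55) and TFF3 (-0.33) fell. CA12, a carbonic anhydrase gene that is also a HIF target, had 189 and 189.5 CPM with vehicle and 299.7 and 276 CPM with HRG (0.60, SE 0.050, adjusted p = 3.37e-12), and RET, AGR2, XBP1 and CCND1 rose by 0.47, 0.45, 0.29 and 0.32 on the log2 scale. Of 13 genes known as androgen targets, 5 rose and 1 fell, with a median of 0.17, among them the retinal dehydrogenase gene ALDH1A3 with 3.66 and 2.84 CPM with vehicle and 7.92 and 8.84 CPM with HRG (1.38, SE 0.15, adjusted p = 4.86e-09) and SORD, which fell by 0.47.

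Most genes of DNA replication and mitosis were higher with HRG, by modest amounts. Of 46 replication genes, 39 rose and 1 fell, with a median log2 fold change of 0.25, beside 12.5% rising and a median of -0.02 over all genes tested. Of 34 mitosis genes, 33 rose and 1 did not pass, with a median of 0.45. RRM2, the regulatory subunit of ribonucleotide reductase, had 194 and 193 CPM with vehicle and 286 and 282 CPM with HRG (0.55, SE 0.046, adjusted p = 3.08e-12), and the clamp loader gene RFC3 had 37.6 and 38.5 CPM and 54.5 and 58.2 CPM (0.56, SE 0.064, adjusted p = 7.32e-09). MKI67, the proliferation marker Ki-67, had 165 and 168 CPM with vehicle and 247 and 250.2 CPM with HRG (0.58, SE 0.051, adjusted p = 1.57e-11), and the mitotic kinase gene PLK1 had 37.8 and 37.3 CPM and 58.3 and 57.6 CPM (0.63, SE 0.064, adjusted p = 7.12e-10). In bulk RNA, more cells in a cycle phase and more of the RNA per cell cannot be told apart.

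Many promoters of the replication genes hold the site of E2F factors, which drive S phase genes and are released when CDK4 and CDK6 inactivate RB1. RefSeq promoters (250 bases before to 50 after the start, GRCh38.p14) were given for 39 of the 46 genes, and 15 of them (38.5%) hold the letters TTTNGCGC on either strand, as do 14 of 33 (42.4%) among those that rose. The letters are in 2 of 27 mitosis promoters (7.41%), in 395 of the 15526 promoters matched to tested genes (2.54%) and in 500 of all 27305 promoters of that length (1.83%). The 4 promoters below show where the letters, in capitals, stand in replication genes and in E2F1 itself, with positions counted from 0 at the first transcribed base.
POLE2, chr14:49688165-49688464, minus strand, matches at -81 and -5: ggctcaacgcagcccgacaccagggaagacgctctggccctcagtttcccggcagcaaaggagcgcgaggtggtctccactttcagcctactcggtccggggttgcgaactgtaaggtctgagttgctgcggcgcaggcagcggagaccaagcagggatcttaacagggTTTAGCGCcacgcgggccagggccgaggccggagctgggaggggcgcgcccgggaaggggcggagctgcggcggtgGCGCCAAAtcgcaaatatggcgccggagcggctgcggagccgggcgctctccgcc
CDC6, chr17:40287629-40287928, plus strand, match at 7: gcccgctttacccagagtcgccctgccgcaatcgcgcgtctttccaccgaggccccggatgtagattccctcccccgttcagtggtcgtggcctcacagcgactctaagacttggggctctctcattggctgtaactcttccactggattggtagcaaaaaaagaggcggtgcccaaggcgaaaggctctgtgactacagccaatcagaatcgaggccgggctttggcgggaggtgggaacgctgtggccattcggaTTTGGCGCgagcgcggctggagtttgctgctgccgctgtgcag
POLA2, chr11:65261712-65262011, plus strand, match at -53: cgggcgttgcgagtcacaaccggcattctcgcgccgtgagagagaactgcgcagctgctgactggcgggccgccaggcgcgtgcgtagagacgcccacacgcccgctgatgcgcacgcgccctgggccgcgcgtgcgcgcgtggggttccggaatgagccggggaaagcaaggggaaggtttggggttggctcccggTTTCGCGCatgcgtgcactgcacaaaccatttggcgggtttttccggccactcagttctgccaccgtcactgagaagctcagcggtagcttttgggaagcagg
E2F1, chr20:33686336-33686635, minus strand, match at -20: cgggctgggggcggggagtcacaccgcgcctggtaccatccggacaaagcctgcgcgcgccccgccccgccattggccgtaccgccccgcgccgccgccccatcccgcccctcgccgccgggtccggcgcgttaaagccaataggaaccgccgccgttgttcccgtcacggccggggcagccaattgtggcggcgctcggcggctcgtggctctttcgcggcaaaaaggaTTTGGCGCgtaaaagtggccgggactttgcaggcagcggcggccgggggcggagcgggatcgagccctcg
POLE2, a subunit of the leading strand polymerase, had 12.4 and 12.9 CPM with vehicle and 17.2 and 19.6 CPM with HRG (0.53, SE 0.096, adjusted p = 3.98e-05). CDC6, which loads the replicative helicase, had 73.3 and 71.2 CPM with vehicle and 96.0 and 99.6 CPM with HRG (0.44, SE 0.054, adjusted p = 4.34e-08). POLA2, a subunit of the primase complex, had 82.1 and 78.8 CPM with vehicle and 109 and 108 CPM with HRG (0.43, SE 0.048, adjusted p = 5.01e-09), and E2F1 had 30.1 and 29.6 CPM and 33.3 and 34.9 CPM (0.19, SE 0.065, adjusted p = 0.0284). The E2F1 call is lost without vehicle replicate 1 (adjusted p = 0.064), vehicle replicate 2 (0.151) or HRG replicate 2 (0.164) and with DESeq2 (0.0613). A match is a description of these letters only, and binding was not measured here.

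Regulators of the G1 phase changed in opposing directions. CCND1 (cyclin D1) had 573 and 586 CPM with vehicle and 709 and 739 CPM with HRG (0.32, SE 0.040, adjusted p = 4.38e-08), and CCND3 rose by 0.33. The CDK inhibitor gene CDKN1A (p21) also rose, from 8.68 and 7.15 CPM to 18.4 and 19.2 CPM (1.26, SE 0.11, adjusted p = 1.43e-11), and CDKN1B (p27) from 90.6 and 92.4 CPM to 109.7 and 106 CPM (0.23, SE 0.047, adjusted p = 0.000167). RBL2 (p130), the pocket protein of resting cells, had 131 and 126 CPM with vehicle and 79.6 and 83.7 CPM with HRG (-0.65, SE 0.047, adjusted p = 9.88e-14). Of the 15 genes of this list, 6 rose and 4 fell, with a median of 0.15 (-0.05 to 0.18 with 1 library left out), but the falls were 2 when vehicle replicate 2, HRG replicate 1 or HRG replicate 2 was left out. CDK4 did not pass (-0.01, adjusted p = 0.954).

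Genes for making ribosomes, nucleotides and proteins were raised together. Of 36 ribosome biogenesis genes, 30 rose and 6 did not pass, with a median log2 fold change of 0.29. UTP20, a factor of small subunit assembly, had 69.2 and 68.2 CPM with vehicle and 96.9 and 93.6 CPM with HRG (0.47, SE 0.053, adjusted p = 5.94e-09), and MRTO4, a factor of large subunit assembly, had 38.1 and 36.3 CPM and 51.1 and 49.6 CPM (0.44, SE 0.059, adjusted p = 2.44e-07). The E-box CACGTG, a site of MYC and related factors, is in 11 of 28 promoters of this list (39.3%), among them 8 of 22 (36.4%) that rose, beside 1420 of the 15526 promoters of tested genes (9.15%). The promoters of UTP20 and MRTO4 are shown with it in capitals.
UTP20, chr12:101279855-101280154, plus strand, match at -10: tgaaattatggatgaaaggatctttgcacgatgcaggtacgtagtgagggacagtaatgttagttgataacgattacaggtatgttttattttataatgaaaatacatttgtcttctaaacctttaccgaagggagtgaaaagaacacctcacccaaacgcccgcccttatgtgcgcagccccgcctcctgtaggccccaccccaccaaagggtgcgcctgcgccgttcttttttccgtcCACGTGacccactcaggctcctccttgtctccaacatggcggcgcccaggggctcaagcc
MRTO4, chr1:19251555-19251854, plus strand, match at 14: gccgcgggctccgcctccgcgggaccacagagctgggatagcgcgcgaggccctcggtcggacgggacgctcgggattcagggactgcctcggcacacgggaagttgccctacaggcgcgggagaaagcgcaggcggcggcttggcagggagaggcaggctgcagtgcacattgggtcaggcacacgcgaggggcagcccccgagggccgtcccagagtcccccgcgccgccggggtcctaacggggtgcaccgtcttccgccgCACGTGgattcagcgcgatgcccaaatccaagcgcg
Of 16 nucleotide synthesis genes, 10 rose and 6 did not pass, with a median of 0.20, for example the CTP synthase gene CTPS1 with 38.8 and 40.4 CPM with vehicle and 51.4 and 53.8 CPM with HRG (0.41, SE 0.066, adjusted p = 6.28e-06). Ribosomal protein genes rose by less, with a median of 0.17, and 40 of 50 were called, but the count was 18 without vehicle replicate 2 and 16 without HRG replicate 1. RPL35 had 255 and 239.9 CPM with vehicle and 328 and 305 CPM with HRG (0.36, SE 0.044, adjusted p = 4.07e-08). Ribosomal protein genes have many processed pseudogenes, and how reads shared with them were counted is not given in the sources used here.

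Amino acid supply and the targets of ATF4, the transcription factor of the integrated stress response, were higher as well. SLC7A5, the leucine transporter LAT1, had 192 and 163 CPM with vehicle and 343 and 306 CPM with HRG (0.87, SE 0.055, adjusted p = 2.1e-15), and its partner SLC3A2 had 116 and 112 CPM and 169 and 157 CPM (0.51, SE 0.044, adjusted p = 6.29e-12). Of 16 amino acid transporter genes, 7 rose and 1 fell, with a median of 0.16 (0.05 to 0.26 with 1 library left out). Of 26 genes of the ATF4 list, 18 rose and 2 fell, with a median of 0.30. ATF4 had 296 and 286 CPM with vehicle and 329 and 331 CPM with HRG (0.18, SE 0.035, adjusted p = 8.79e-05). The aminoacyl-tRNA synthetase genes WARS1, AARS1, SARS1, MARS1 and GARS1 rose by between 0.30 and 0.38 on the log2 scale, TRIB3 by 0.40 and PSAT1, an enzyme of serine synthesis, by 0.36. Not all members passed: ASNS, asparagine synthetase, did not pass (-0.22, adjusted p = 0.614), nor did PHGDH (adjusted p = 0.986), and NUPR1 fell from 114 and 97.6 CPM to 86.5 and 81.2 CPM (-0.33, SE 0.058, adjusted p = 2.27e-05, or -0.21 without vehicle replicate 1). GDF15 belongs to this list too and was its largest rise. Of 18 genes of the unfolded protein response, a stress program of the endoplasmic reticulum, 6 rose and 2 fell, with a median of 0.09. HSPA5, its main chaperone gene, did not pass (-0.04, adjusted p = 0.583).

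Genes of lipid synthesis rose in both of its branches. Of 25 cholesterol synthesis genes, 18 rose and 1 fell, with a median log2 fold change of 0.26. HMGCS1, the first committed enzyme of the pathway, had 747 and 708 CPM with vehicle and 963 and 991 CPM with HRG (0.43, SE 0.056, adjusted p = 1.68e-07), and FDPS, which makes farnesyl pyrophosphate, had 140.4 and 125 CPM and 211 and 205 CPM (0.65, SE 0.048, adjusted p = 1.93e-13). Of 23 fatty acid and glycerolipid genes, 15 rose and 3 fell, with a median of 0.32. FASN, fatty acid synthase, had 3806 and 3858 CPM with vehicle and 5074 and 4802 CPM with HRG (0.37, SE 0.034, adjusted p = 8.15e-11), SCD, the stearoyl-CoA desaturase, had 2537 and 2371 CPM and 3355 and 3376 CPM (0.46, SE 0.036, adjusted p = 7.34e-13), and ACSS2, which makes acetyl-CoA from acetate, had 296 and 307 CPM and 541 and 633 CPM (0.96, SE 0.090, adjusted p = 8.73e-11). The genes of the regulators SREBF1 and SREBF2 did not pass (0.01, adjusted p = 0.862, and 0.04, adjusted p = 0.564). GPAT3, the largest fall among DEGs with a mean of 1 CPM or more, and AGPAT2 (-0.36, SE 0.071, adjusted p = 0.000142) are acyltransferases of the glycerolipid branch.

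Glycolysis genes rose almost as a whole. Of 23, 20 rose, 1 fell and 2 did not pass, with a median of 0.41, or 0.38 without SLC2A3, which was at the floor in both groups. ENO1 had 914 and 890.1 CPM with vehicle and 1188 and 1221 CPM with HRG (0.42, SE 0.044, adjusted p = 1.06e-09), LDHA had 166 and 151 CPM and 235 and 227 CPM (0.54, SE 0.057, adjusted p = 1.36e-09), and HK2, the inducible hexokinase, had 154 and 162 CPM and 205 and 217 CPM (0.42, SE 0.058, adjusted p = 4.62e-07). The glucose transporter gene SLC2A1 rose by 0.34 on the log2 scale, and PFKM, the muscle form of phosphofructokinase, was the member that fell (-0.24, SE 0.058, adjusted p = 0.00186). Targets of the hypoxia factor HIF rose in 11 of 18 cases and fell in 1, with a median of 0.52, or 0.46 without 1 gene at the floor in both groups. Among them VEGFA had 131 and 123 CPM with vehicle and 207 and 204 CPM with HRG (0.70, SE 0.056, adjusted p = 1.53e-12), EGLN3 had 65.0 and 67.7 CPM and 138 and 164 CPM (1.19, SE 0.078, adjusted p = 6.45e-15), and CA9 had 0.293 and 0.553 CPM and 1.87 and 2.50 CPM (2.30, SE 0.43, adjusted p = 6.88e-05). HIF1A itself had 231 and 222 CPM with vehicle and 258 and 264 CPM with HRG (0.20, SE 0.037, adjusted p = 4.71e-05). The mitophagy genes BNIP3 and BNIP3L did not pass (0.24, adjusted p = 0.0949, and -0.03, adjusted p = 0.719). Of 16 genes of the pentose phosphate pathway and of NRF2, 8 rose and 2 fell, with a median of 0.19. FTL, ferritin light chain, was the member that fell most (-0.59, SE 0.046, adjusted p = 7.98e-13). HMOX1, a classical NRF2 target, did not pass (-0.11, adjusted p = 0.829). Over all genes tested, 12.5% were higher and 11.6% lower. Of 39 nuclear genes of oxidative phosphorylation, 14 rose and 2 fell, with a median of 0.07 (0.03 to 0.13 with 1 library left out), and the rises were 8 without vehicle replicate 2 and 5 without HRG replicate 1.

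**Figure D3:**
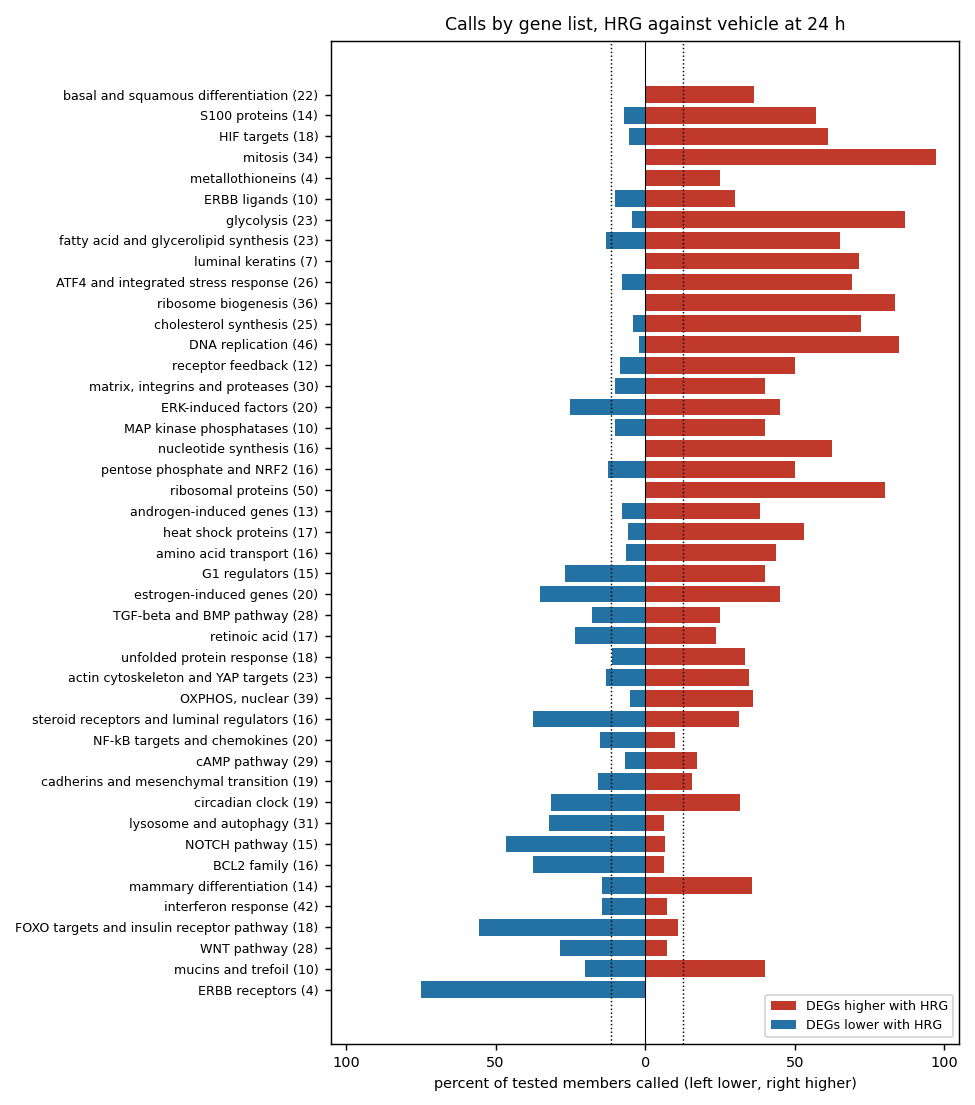
Share of the tested members of each gene list (number tested in brackets) called higher (red, to the right) or lower (blue, to the left) with HRG at 24 h, ordered by the list's median log2 fold change. Dotted lines mark the 12.5% and 11.6% called over all genes tested, and mitosis with 33 of 34 members higher and DNA replication with 39 of 46 stand far to the right of them.

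Keratin and S100 genes of epithelia were largely higher with HRG. Of 7 luminal keratin genes, 5 rose and 2 did not pass, with a median log2 fold change of 0.31 (0.31 to 0.50 with 1 library left out). The luminal keratin genes KRT18 (567 and 583 CPM with vehicle, 828 and 894 CPM with HRG, 0.58, SE 0.036, adjusted p = 1.11e-15) and KRT8 (1331 and 1355 CPM, 1651 and 1689.6 CPM, 0.31, SE 0.030, adjusted p = 1.1e-10) rose, as did KRT7 and KRT19 by 0.45 and 0.28, and KRT80 rose most (1.13, SE 0.055, adjusted p = 1.25e-18). KRT81 and KRT86, which are near-identical copies, did not pass. Of 22 genes of basal and squamous differentiation, 8 rose and 14 did not pass, with a median of 0.86, 0.58 to 1.29 with 1 library left out, or 0.42 with genes at the floor in 1 group at their bound and without those at the floor in both. KRT15 had 53.5 and 60.2 CPM with vehicle and 124 and 127 CPM with HRG (1.14, SE 0.065, adjusted p = 1.04e-16), and TP63, the regulator of basal cells, had 3.12 and 3.36 CPM and 6.02 and 7.55 CPM (1.05, SE 0.17, adjusted p = 5.64e-06). The defining basal keratin genes KRT5 and KRT14 were at the floor in the vehicle libraries and did not pass. Of 14 S100 genes, which encode calcium-binding proteins, 8 rose and 1 fell, with a median of 0.59. S100A14 had 307 and 305 CPM with vehicle and 475 and 463 CPM with HRG (0.62, SE 0.035, adjusted p = 7.74e-17), S100A16 rose by 0.60, and S100P had 2.39 and 3.32 CPM and 9.27 and 8.71 CPM (1.64, SE 0.17, adjusted p = 4.95e-10). Of 10 mucin and trefoil genes, 4 rose and 2 fell, with a median of -0.23 (-0.05 at the bound, -0.10 to 0.17 with 1 library left out), and MUC1 had 93.1 and 108 CPM with vehicle and 64.0 and 76.0 CPM with HRG (-0.53, adjusted p = 8.44e-08).

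Most genes of the list of cadherins and mesenchymal transition did not pass the test, and CDH2, TWIST1 and VIM were the members lower with HRG. CDH2, which encodes N-cadherin, had 30.7 and 28.8 CPM with vehicle and 11.6 and 9.09 CPM with HRG (-1.51, SE 0.094, adjusted p = 1.74e-15), TWIST1 had 14.2 and 13.7 CPM and 4.64 and 4.67 CPM (-1.58, SE 0.12, adjusted p = 1.21e-13), and VIM (vimentin) had 41.2 and 35.7 CPM and 23.1 and 25.1 CPM (-0.67, SE 0.071, adjusted p = 1.75e-09). In each case both HRG libraries were below both vehicle libraries. CDH1, E-cadherin, did not pass (-0.02, adjusted p = 0.694), and the tight junction gene CLDN7 rose (0.37, SE 0.055, adjusted p = 1.4e-06). Of the 19 genes of this list, 3 rose (CDH5, CLDN7 and ESRP1), 3 fell and 13 did not pass. The median was -0.02 (-0.06 at the bound, -0.01 to 0.02 with 1 library left out). The 15.8% called in each direction is near the 12.5% higher and 11.6% lower over all genes tested. Of 30 genes of matrix, integrins and proteases, 12 rose and 3 fell, with a median of 0.23 (0.20 at the bound), and the falls were 5 with a block for the replicate numbers. Besides TNC and ITGB6, the protease inhibitor gene TIMP1 had 2.58 and 2.65 CPM with vehicle and 8.13 and 7.88 CPM with HRG (1.61, SE 0.15, adjusted p = 7.13e-11), the collagenase gene MMP13 had 0.829 and 0.869 CPM and 3.05 and 2.25 CPM (1.65, SE 0.26, adjusted p = 4.87e-06), and the laminin-binding integrin gene ITGB4 had 61.2 and 62.9 CPM and 97.3 and 95.2 CPM (0.63, SE 0.048, adjusted p = 3.96e-13). COL7A1 fell from 49.1 and 54.1 CPM to 38.2 and 33.6 CPM (-0.52, SE 0.084, adjusted p = 6.22e-06). Of 23 genes of the actin cytoskeleton and of YAP, 8 rose and 3 fell, with a median of 0.08 (0.05 at the bound, 0.04 to 0.10 with 1 library left out). The falls were 1 without vehicle replicate 2. ZYX (zyxin) rose by 0.49, SE 0.062, adjusted p = 7.47e-08, and ACTB did not pass (0.05, adjusted p = 0.187).

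Members of developmental pathways were called in both directions, beside 12.5% higher and 11.6% lower over all genes tested. The rises in the WNT list (7.14%) and the NOTCH list (6.67%) were below that share, and their falls were 28.6% and 46.7%. In the TGF-beta and BMP list 25.0% rose and 17.9% fell. In the WNT list 8 of 28 genes fell and 2 rose, with a median of -0.22 (-0.25 at the bound), LEF1 falling most and the WNT inhibitor gene DKK1 rising from 8.53 and 9.88 CPM to 18.9 and 18.8 CPM (1.03, SE 0.087, adjusted p = 5.83e-12). The count of falls was 3 without vehicle replicate 2 5 without vehicle replicate 1 or HRG replicate 1, and 4 with DESeq2. AXIN2, the common readout of the pathway, did not pass (-0.33, adjusted p = 0.615). In the NOTCH list 7 of 15 genes fell and 1 rose, with a median of -0.09 (-0.11 at the bound, -0.17 to 0.01 with 1 library left out), and the falls were 2 without vehicle replicate 2, 3 without HRG replicate 1 and 4 with DESeq2. HEY2 had 16.5 and 15.1 CPM with vehicle and 7.99 and 5.80 CPM with HRG (-1.18, SE 0.11, adjusted p = 1.34e-10), and NOTCH3 fell by 0.24. Of 28 genes of TGF-beta and BMP signalling, 7 rose and 5 fell, with a median of 0.10 (0.03 to 0.16 with 1 library left out), and the falls were 2 or 3 when any 1 of the 4 libraries was left out, and 3 with DESeq2. BMP7 had 209 and 208 CPM with vehicle and 295 and 320.1 CPM with HRG (0.56, SE 0.039, adjusted p = 3.01e-14), BMP4 had 8.63 and 7.62 CPM and 3.29 and 3.25 CPM (-1.31, SE 0.16, adjusted p = 2.1e-08), and SMAD7, the inhibitory SMAD, had 15.1 and 15.4 CPM and 9.34 and 9.59 CPM (-0.69, SE 0.091, adjusted p = 1.72e-07). ID1, a BMP target, rose from 1.37 and 2.09 CPM to 4.08 and 4.46 CPM (1.27, SE 0.21, adjusted p = 6.82e-06).

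Of the BCL2 family, 6 of 16 genes fell and 1 rose, with a median of -0.09 (-0.17 to -0.06 with 1 library left out), and the falls were 3 without vehicle replicate 2. BMF, a death-promoting member, had 50.4 and 44.6 CPM with vehicle and 26.2 and 23.7 CPM with HRG (-0.92, SE 0.077, adjusted p = 3.75e-12), and BIK, another one, had 17 and 17.5 CPM and 12.8 and 13 CPM (-0.42, SE 0.089, adjusted p = 0.000378). The protective members BCL2 (-0.32, SE 0.057, adjusted p = 3.37e-05) and MCL1 (-0.15, SE 0.036, adjusted p = 0.00136) were lower too, MCL1 losing its call without vehicle replicate 2 (adjusted p = 0.075), and BCL2L11 (BIM) did not pass (0.08, adjusted p = 0.303).

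Few immune response genes were called. Of 42 interferon response genes, 3 rose and 6 fell, near the shares over all genes tested, with a median log2 fold change of -0.14 (-0.25 to -0.17 with 1 library left out), or -0.24 without 3 genes at the floor in both groups. Without vehicle replicate 2, 1 of them was called higher. HERC6 had 15.0 and 13.7 CPM with vehicle and 6.96 and 6.92 CPM with HRG (-1.05, SE 0.11, adjusted p = 5.31e-10), STAT2 had 70.7 and 75.5 CPM and 51.5 and 53.1 CPM (-0.49, SE 0.052, adjusted p = 1.85e-09), and IFITM3 had 12.2 and 12.2 CPM and 7.13 and 7.75 CPM (-0.71, SE 0.11, adjusted p = 2e-06). IRF1 did not pass (-0.24, adjusted p = 0.282), nor did ISG15 (-0.40, adjusted p = 0.412). Of 20 genes of NF-kB and chemokines, 2 rose and 3 fell, with a median of -0.01 (-0.06 at the bound, -0.10 to 0.14 with 1 library left out).

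The comparison with 12 h asks whether the 24 h response was already the response at 12 h. At 12 h, 13.3% of the genes tested were higher and 12.5% lower with HRG than with the 12 h vehicle. Tested as an interaction, the HRG effect differed between 24 h and 12 h for 628 genes (2.5%), being higher at 24 h for 192 (0.764%) and lower for 436 (1.73%). These counts depend on single libraries, being 117 and 281 without 12 h vehicle replicate 1, 107 and 265 without 12 h HRG replicate 2, and 126 higher without 12 h vehicle replicate 2 and 295 higher without 24 h HRG replicate 2. PTGS1, cyclooxygenase 1, had 2.13 and 2.33 CPM with vehicle and 0.999 and 0.815 CPM with HRG at 12 h, and 1.12 and 1.94 CPM and 7.54 and 5.67 CPM at 24 h, so it was below vehicle at 12 h and above it at 24 h (difference of the log2 effects 3.39, SE 0.32, adjusted p = 3.63e-09). DHRS3, a retinal reductase gene, had 2.98 and 2.87 CPM with vehicle and 1.95 and 1.77 CPM with HRG at 12 h and 1.46 and 2.17 CPM and 7.99 and 7.42 CPM at 24 h (2.72, SE 0.27, adjusted p = 9.4e-09). SCGB2A2, which encodes mammaglobin, went from 27.5 and 24.1 CPM with vehicle and 25.4 and 25.4 CPM with HRG at 12 h to 22.9 and 21.5 CPM and 45.5 and 39.1 CPM at 24 h (0.96, SE 0.11, adjusted p = 2.27e-07). At 12 h the HRG libraries of these 3 genes were below the vehicle libraries or overlapped them, and at 24 h they were above them.

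More genes had an HRG effect that was lower at 24 h, as a deeper fall, a rise that was smaller or gone, or a turn from above vehicle to below it. EGR1 had 34.8 and 34.6 CPM with vehicle and 16.2 and 12.0 CPM with HRG at 12 h, and its effect fell by a further 1.15 on the log2 scale by 24 h (adjusted p = 9.58e-07). The effect on VIM was 0.18 at 12 h and -0.67 at 24 h (difference -0.84, SE 0.098, adjusted p = 2.47e-07), that on CDH2 -0.69 and -1.51 (difference -0.82, SE 0.13, adjusted p = 9.14e-05), and that on IGFBP5 -0.70 and -1.33 (difference -0.63, SE 0.059, adjusted p = 3.63e-09). STK32B, a kinase gene, had 3.48 and 2.95 CPM with vehicle and 7.86 and 8.68 CPM with HRG at 12 h, and 3.85 and 3.79 CPM and 2.28 and 3.04 CPM at 24 h (-1.89, SE 0.23, adjusted p = 4.68e-07), and the matrix gene EFEMP1 went from 1.61 to -0.19 on the log2 scale (difference -1.80, SE 0.28, adjusted p = 5.78e-05). For STK32B the HRG libraries stood above vehicle at 12 h and below it at 24 h.

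Some groups of genes that rose had a smaller effect at 24 h than at 12 h. Of the replication genes, 42 of 46 were called higher at 12 h with a median log2 effect of 0.46, against 39 with a median of 0.25 at 24 h, and the effect was lower at 24 h for 12 of them. Of the mitosis genes, 30 of 34 were called higher at 12 h with a median of 0.31, against 33 with a median of 0.45 at 24 h, and the effect differed for 1, where it was higher at 24 h. The effect on luminal keratin genes was lower at 24 h for 5 of 7, on matrix and integrin genes for 7 of 30 and on actin and YAP genes for 7 of 23, for example MYH9 (0.58 at 12 h, 0.15 at 24 h, difference -0.43, SE 0.040, adjusted p = 3.63e-09). Cholesterol genes had a median of 0.38 at 12 h and 0.26 at 24 h, and the effect was lower at 24 h for 2 of 25.

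**Figure D4:**
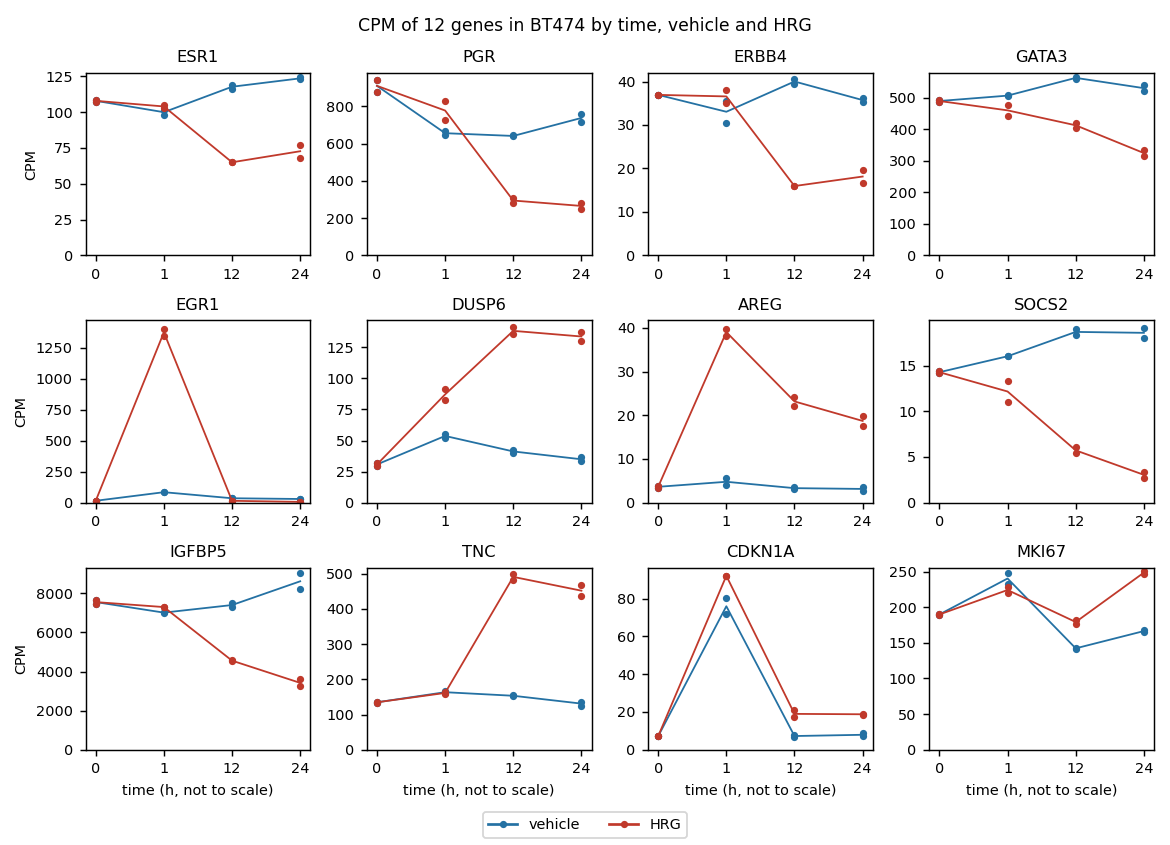
CPM (vertical axes, from 0) of 12 genes at 0, 1, 12 and 24 h (horizontal axis, not to scale) in BT474 with vehicle (blue) and HRG (red), with 1 point per library and lines through the means of 2. At 24 h the HRG points lie below the vehicle points for ESR1, PGR, ERBB4, GATA3, EGR1, SOCS2 and IGFBP5 and above them for DUSP6, AREG, TNC, CDKN1A and MKI67.

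**Figure D5:**
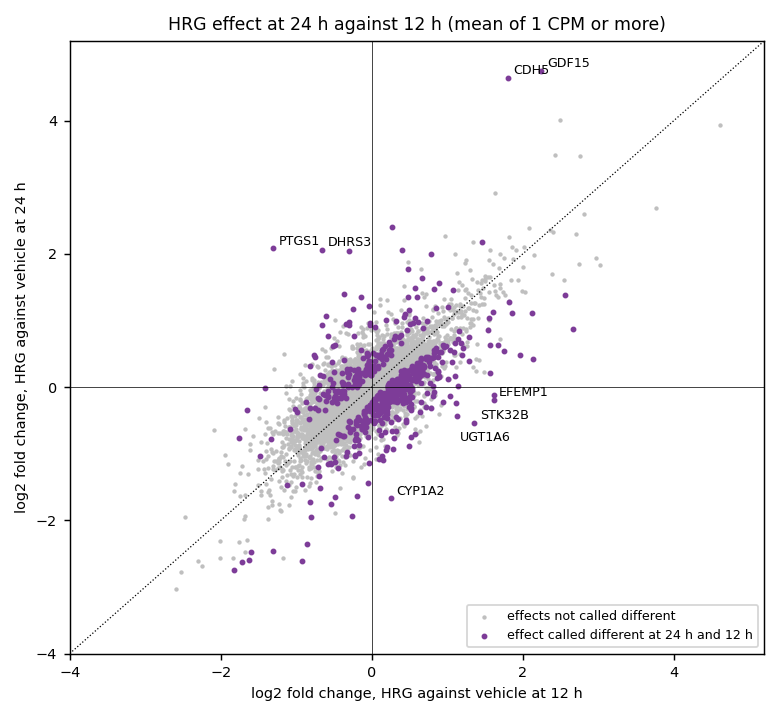
The log2 fold change of HRG against vehicle at 24 h (vertical axis) against that at 12 h (horizontal axis) for genes with a mean of 1 CPM or more in the 24 h libraries, with the diagonal of equal effects dotted. Purple points are genes whose effects were called different, and the named ones have the largest differences, such as DHRS3 and PTGS1 far above the diagonal and STK32B and EFEMP1 below it.

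EGF, which binds EGFR rather than HER3, was given at 50 ng/mL, so dose and ligand differ together in the direct comparison of the HRG and EGF libraries at 24 h. It gave 193 genes (0.768%), 52 higher with HRG (0.207%) and 141 lower (0.561%). The counts were 84 and 82 without HRG replicate 2, 349 and 359 without EGF replicate 2, and 6 and 6 with only the libraries of the groups compared in the fit. AREG had 19.8 and 17.6 CPM with HRG and 13.8 and 13.9 CPM with EGF (log2 difference 0.44, SE 0.097, adjusted p = 0.0155), and its call is lost without HRG replicate 1 (0.35, adjusted p = 0.175) or EGF replicate 1 (0.44, adjusted p = 0.0861) and with all 40 libraries (0.133) or only the groups compared (0.144) in the fit. TNC had 468 and 435 CPM with HRG and 369 and 321 CPM with EGF (log2 difference 0.39, SE 0.046, adjusted p = 3.67e-06), and SLC7A5 had 343 and 306 CPM and 266 and 235 CPM (0.37, SE 0.054, adjusted p = 0.000113). In the other direction SOCS2 had 2.73 and 3.34 CPM with HRG and 5.28 and 6.69 CPM with EGF (-0.98, SE 0.15, adjusted p = 0.000236), and COLEC12 had 42.0 and 48.3 CPM and 61.8 and 66.9 CPM (-0.51, SE 0.057, adjusted p = 1.03e-06). For TNC, SLC7A5, SOCS2 and COLEC12 the HRG and EGF libraries did not overlap, which the choice of SOCS2 required. In the lists, the difference was called for 3 of 16 amino acid transporter genes, all higher with HRG. Among others, it was also called for 2 of 4 HER receptor genes and 3 of 16 steroid receptor and luminal regulator genes, all lower with HRG.

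BT474R answered HRG at 24 h with fewer calls, 1.89% of its 24287 genes tested being higher and 0.889% lower. A count of calls depends on the spread between libraries as well as on the size of the effect. Of 25 cholesterol genes, 0 were called in BT474R at a median log2 effect of 0.32, beside 18 higher at 0.26 in BT474. For glycolysis the median was 0.15 in BT474R and 0.41 in BT474. What lowered the counts in BT474R was not tested. The HRG effect differed between the lines for 821 of 24641 genes (3.33%), being higher in BT474R for 306 (1.24%) and lower for 515 (2.09%). The counts were 192 higher without BT474 vehicle replicate 1, 227 lower without BT474 vehicle replicate 2, 197 and 251 without BT474 HRG replicate 1, 304 lower without BT474 HRG replicate 2, and 747 and 773 without BT474R HRG replicate 1. H19 had a log2 fold change of 3.48 in BT474 and 0.92 in BT474R (difference -2.59, SE 0.29, adjusted p = 1.36e-07), and AREG one of 2.6 and 0.10 (difference -2.53, SE 0.48, adjusted p = 0.000776). The effect on ITGB6 was 1.92 and 0.43 (difference -1.53, SE 0.12, adjusted p = 1.4e-10), that on TNC 1.79 and 0.68 (difference -1.14, SE 0.084, adjusted p = 1.82e-11), and that on DUSP6 1.94 and 1.09 (difference -0.89, SE 0.13, adjusted p = 3.1e-05). Among the genes that fell in BT474, PTPRQ had effects of -2.78 and 0.29 (difference 3.04, SE 0.59, adjusted p = 0.00113) and PGR of -1.47 and -0.55 (difference 0.89, SE 0.13, adjusted p = 2.54e-05). These differences were all toward a smaller effect in BT474R. The genes had been named for large changes or small p in BT474 or for large differences, and this choice favours that direction. Of the mitosis genes, 16 of 34 were called higher in BT474R and the effect was lower than in BT474 for 10, among them MKI67 (-0.35, SE 0.082, adjusted p = 0.00753, but an adjusted p of 0.0633 without BT474 HRG replicate 2). Of the replication genes, 28 of 46 were called higher in BT474R with a median log2 effect of 0.29, beside 0.25 in BT474.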

How the data were processed

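BT474 RNA-seq libraries were counted per gene by the authors, and the deposited values are raw counts. The submitters' notes name FastQC, MultiQC, Trim Galore 0.6.6, featureCounts and build GRCh38.p13, and which annotation release was used, whether strand was considered and how multi-mapped reads were handled is not given in the sources used here. Reads of paralogs, pseudogenes and overlapping genes may therefore be split between them.

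Genes with at least 1 count in 50% of libraries were kept, scaled by TMM and tested in R 4.3.3 with edgeR 4.0.16 (quasi-likelihood, Benjamini-Hochberg adjustment, threshold 0.05) in 1 fit of all 20 BT474 libraries with a contrast per comparison. BT474R was fitted on its own for its own effect and together with BT474, over all 40 libraries, for the difference between the lines. The authors' methods guided this design, and DESeq2 1.42.0 was an alternative. The scripts were tested on simulated data. Between replicates the median chi-square of a gene was 0.821 for vehicle and 0.994 for HRG, where sampling noise alone gives 0.455, so no library was treated as a copy of another. It was 1.13 for EGF at 24 h and 0.571 to 0.728 for the BT474 groups at other times. The fit pools the spread over all of them, so it may be too small for the 24 h groups. Names that repeat another with a number (2003 tested) were kept as separate genes.

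Genes named in the text are the 12 DEGs per direction with the largest changes at a mean of 1 CPM or more, the 5 per direction with the smallest p, up to 4 per direction in each list with members that did not pass, a set of anchor genes, and the 4 per direction with the largest differences in each other contrast. Further list members were named after their values were seen, and some that the rule names are not reported here. The members and lists were chosen with earlier results of these data known. Promoter sequences are from RefSeq (GRCh38.p14), and no position was converted between builds. The 13 mitochondrial genes of oxidative phosphorylation were not analysed here.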

Additional observations from a re-analysis of the deposited data

Results flagged for a closer look

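The HRG effect differed between 24 h and 12 h by the interaction test for 192 genes that were higher and 436 that were lower at 24 h. In the differences that follow, values are of log2 effects, 24 h minus 12 h. Among the genes eligible to be named, the largest positive ones were those of PTGS1 (3.39), CDH5 (2.85), DHRS3 (2.72) and GDF15 (2.50), and the largest negative ones those of UGT1A6 (-1.95), CYP1A2 (-1.92), STK32B (-1.89) and EFEMP1 (-1.80). UGT1A6 shares exons with other UGT1A genes, so its counts are uncertain. CDH5 lost its call in 8 alternatives, for example without 24 h vehicle replicate 1 (2.02, adjusted p = 0.204), and UGT1A6 in 7, for example without 12 h HRG replicate 1 (-1.48, adjusted p = 0.234). GDF15 lost its call without 12 h vehicle replicate 1 (2.34, adjusted p = 0.106) or 24 h vehicle replicate 2 (2.19, adjusted p = 0.0976) and with all 40 libraries in 1 fit (2.49, adjusted p = 0.688), where the calls of ETV4 (0.71, adjusted p = 0.179) and PGR (-0.36, adjusted p = 0.0923) were lost too. Other genes whose effect was lower at 24 h than at 12 h were ADCY2 (-1.68), EGR1 (-1.15), CBLN2 (-0.92), SOCS2 (-0.91), VIM (-0.84), CDH2 (-0.82), IGFBP5 (-0.63), MYH9 (-0.43) and PGR (-0.35), of which PGR lost its call without 12 h HRG replicate 2 (-0.27, adjusted p = 0.0825). BPIFA2 (2.13), SCGB2A2 (0.96) and ETV4 (0.72) had a higher effect at 24 h, and BPIFA2 lost its call without 12 h vehicle replicate 1 (1.52, adjusted p = 0.0922).

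Between the lines, the effect at 24 h was higher in BT474R for 306 genes and lower for 515 by the same kind of test. As BT474R minus BT474, the largest positive differences of log2 effects among the genes eligible to be named were those of PTPRQ (3.04), KCNJ13 (2.41), IGFBP3 (2.21) and STXBP5L (2.21), and the largest negative ones those of ACOX2 (-3.38), CDH5 (-2.82), AKR1B10 (-2.75) and H19 (-2.59). KCNJ13 lost its call without BT474R HRG replicate 2 (1.71, adjusted p = 0.35) and STXBP5L without BT474R HRG replicate 1 (1.24, adjusted p = 0.254). ACOX2 had counts of 0 and 2 in the BT474 vehicle libraries and lost its call without vehicle replicate 1 (-2.62, adjusted p = 0.103) or HRG replicate 1 (-2.82, adjusted p = 0.0744), and CDH5 lost it without BT474 vehicle replicate 1 (-2.01, adjusted p = 0.164), BT474 HRG replicate 2 or either BT474R vehicle library. AREG (-2.53), ITGB6 (-1.53), TNC (-1.14), DUSP6 (-0.89) and MKI67 (-0.35) had a smaller rise in BT474R, and PGR (0.89) a smaller fall. BT474R is 1 line, so resistance and other differences of this line cannot be told apart.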

How the results depend on the processing

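The numbers of DEGs held under each way of scaling and filtering tried, between 4311 and 6579 over all alternatives with 49.7% to 57.9% of them higher, and no named gene that was called changed direction. Leaving out 1 library gave 2252 to 3060 genes up, 1964 to 2315 down, 277 to 309 up and 342 to 412 down by a log2 of 1 or more. With DESeq2 246 genes fell by a log2 of 1 or more, against 465, and the cause was not tested. With a library left out, the lone library of its group is assumed to vary like the other groups. The filter on low counts was applied anew to each such fit, leaving 24874 to 24927 genes tested against 25146. A list can thus lose members with few counts, and the range of its median need not include the median from all libraries. Of 27 counts of 1 or 2 members in the gene lists, 16 moved by over 1.5 times with some library left out. Of 289 named genes called at 24 h, 222 were called in every alternative and 64 lost the call when some library was left out.

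The smaller comparisons depended more on the processing, and the cause was not tested there either. For the effect at 24 h against 12 h, 291 genes were higher with no filter, 86 higher and 259 lower with all 40 libraries in 1 fit, and 107 to 295 higher and 265 to 414 lower with 1 library left out. For HRG against EGF, 168 were higher and 234 lower with no filter, 27 and 28 with all 40 libraries in 1 fit, 6 and 6 with only the groups compared, and 44 to 349 and 82 to 359 with 1 library left out. Between the lines, 192 to 747 were higher and 227 to 773 lower in BT474R with 1 library left out.

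The labels give replicate numbers but do not say what they share, and the deviations of same-numbered libraries at 24 h correlated at 0.298 for vehicle and HRG, 0.145 for vehicle and EGF and 0.188 for HRG and EGF over 15021 genes. With a replicate block over all libraries, 6256 DEGs were called (3257 higher, 2999 lower), and 79 genes were higher with HRG than with EGF. With a replicate block within time points, 6579 DEGs were called, 314 genes had a higher effect at 24 h than at 12 h, and 151 were higher and 278 lower with HRG than with EGF. The depth limits calls mainly to genes with enough reads, as a small difference in a gene near the floor may not be detectable here. Large ones were called at times, with 51 DEGs that rose being at the floor with vehicle and 80 that fell being at the floor with HRG.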

Other observations

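Genes of the lysosome and of autophagy were called lower more often than higher, with 10 of 31 falling, 2 rising and a median log2 fold change of -0.08 (-0.14 to -0.04 with 1 library left out), beside 11.6% falling over all genes tested. CTSD, the protease cathepsin D, which is also an estrogen target, had 154 and 149 CPM with vehicle and 217 and 206 CPM with HRG (0.48, SE 0.039, adjusted p = 2.33e-12). MAP1LC3A, a marker protein of autophagosomes, had 44.9 and 49.7 CPM and 31.1 and 36.1 CPM (-0.50, SE 0.065, adjusted p = 1.46e-07). Of 17 heat shock protein genes, 9 rose and 1 fell, with a median of 0.17 (0.14 at the bound), and HSPA8 had 1831 and 1668 CPM with vehicle and 2166 and 1968 CPM with HRG (0.24, SE 0.043, adjusted p = 3.58e-05). Of 4 metallothionein genes tested, 1 was called higher (MT2A, 0.95, adjusted p = 0.00342), and that call is lost with DESeq2 (adjusted p = 0.0508), without vehicle replicate 1 (0.158) and without HRG replicate 2 (0.336).

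Genes of the circadian clock list, which also holds clock output genes, were called in both directions. Of 19, 6 rose (31.6%) and 6 fell (31.6%), beside 12.5% and 11.6% over all genes tested. The median was -0.06 (-0.14 to 0.05 with 1 library left out), and fewer falls were called without HRG replicate 2. PER2 had 32.4 and 36.2 CPM with vehicle and 42.7 and 43.0 CPM with HRG (0.32, adjusted p = 0.000437). In the cAMP list 5 of 29 rose (17.2%) and 2 fell (6.90%), near the 12.5% and 11.6% over all genes tested. The median was -0.01 (-0.04 to 0.04 with 1 library left out). Among the rises was the phosphodiesterase gene PDE4B with 1.90 and 2.29 CPM with vehicle and 4.91 and 5.04 CPM with HRG (1.23, SE 0.20, adjusted p = 8.58e-06). In the retinoic acid list 4 of 17 rose (23.5%) and 4 fell (23.5%), with a median of 0.10 (0.06 at the bound, 0.00 to 0.16 with 1 library left out). DHRS3 rose (2.06, SE 0.17, adjusted p = 4.95e-12) and so did RDH10 (0.93, SE 0.087, adjusted p = 6.82e-11), while RXRA (-0.51, SE 0.075, adjusted p = 1.46e-06) fell. Of 14 mammary differentiation genes, 5 rose and 2 fell, with a median of -0.11 (-0.18 to 0.03 with 1 library left out), and the rises were 2 without vehicle replicate 2 and 3 without HRG replicate 1. Besides SCGB2A2, SCGB1D2 (lipophilin B) had 11.2 and 8.93 CPM with vehicle and 3.11 and 2.96 CPM with HRG (-1.71, SE 0.15, adjusted p = 2.21e-11).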
